A study of Homo sapiens with 4 samples.

Results

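NEAT1, MALAT1, NORAD, TUG1, OIP5-AS1, CYTOR, LINC-PINT and HOTAIRM1 are well known long noncoding RNA (lncRNA) genes, and all 8 have a row among the 60708 genes of the count table. They were chosen by name, as lncRNAs that act in the nucleus or the cytoplasm, and matched by Ensembl identifier. Of the 8 genes, 5 were measured and tested, while OIP5-AS1, CYTOR and LINC-PINT are listed at 0 in every library. GENCODE types 7 of them as lncRNA. TUG1 is typed as protein coding there.

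The data are 4 TT-seq libraries of HEK293 cells, a human embryonic kidney line. TT-seq labels RNA in living cells with 4-thiouridine, a uridine analog, here for 20 min, and sequences the RNA fragments pulled down through that label. All cells carried a degron on RPB1, the largest subunit of RNA polymerase II, and all received auxin, which triggers loss of the tagged protein. The cells were transiently transfected with RPB1 that has either a 52-repeat wild-type C-terminal domain (CTD) or a CTD with Thr4 changed to alanine in each repeat (T4A). Auxin was added 48 h after transfection and kept for 48 h more. Each construct has 2 libraries, called WT replicates 1 and 2 and T4A replicates 1 and 2. The labels do not say whether replicates were separate cultures, so p-values measure only the spread between these libraries. Every sample is a mixture of transfected and any untransfected cells of the degron line. In such bulk samples fewer transcribing cells and less RNA per cell cannot be told apart. The comparison asks how labeled RNA of each gene differs when the Thr4 position of the CTD is lost.

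NEAT1 and MALAT1 lie side by side on the same strand and their RNAs stay in the nucleus. NEAT1 RNA is the scaffold of paraspeckles, nuclear bodies built with the proteins NONO, SFPQ and others, and MALAT1 RNA gathers in nuclear speckles, which hold splicing factors. The 3′ ends of MALAT1 and of the long NEAT1 isoform are not made by ordinary polyadenylation. RNase P cuts the transcript upstream of a tRNA-like fold, RNase Z trims that fold on its other side, and the mature end is protected by a triple helix of U-rich runs with an A-rich tract. NORAD is an abundant, mostly cytoplasmic RNA that binds Pumilio proteins. TUG1 is found in both compartments, and HOTAIRM1 lies in the HOXA cluster.

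The ends of NEAT1 and MALAT1 are shown because they carry the element just described. Sequences are from GENCODE transcripts. The NEAT1 window is bases 22669 to 22743 of its longest transcript, which ends there. The MALAT1 window is bases 8403 to 8477 of a transcript annotated for 1957 bases more. Each window has 75 bases, written as DNA. The first run in capitals is the longest run that the last 100 bases of NEAT1 share with MALAT1, 16 bases, with a U-rich stretch at its end. The last run in capitals is the A-rich tract up to GCAAAA.
NEAT1: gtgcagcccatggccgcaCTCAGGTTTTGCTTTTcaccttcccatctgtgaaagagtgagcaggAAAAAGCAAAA
MALAT1: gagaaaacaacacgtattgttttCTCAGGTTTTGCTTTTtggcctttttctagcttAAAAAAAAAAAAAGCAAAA

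NORAD is known for its repeated Pumilio motif, and the windows below show the forms it takes there. The motif was searched as TGTANATA, where N is any base, on the RNA strand only, with overlapping matches counted. NORAD holds 15 matches in 5401 bases, or 2.78 per kb. NEAT1 has 6 (0.26 per kb), TUG1 2 (0.27 per kb) and OIP5-AS1 1 (0.11 per kb), and MALAT1, CYTOR, LINC-PINT and HOTAIRM1 have none in their longest transcripts. Among the longest transcripts of 23162 tested genes 27.0% hold at least 1 match and 7 hold 15 or more. Of the 19461 transcripts of at least 1 kb, 4 have 2.78 per kb or more before rounding. NORAD lies just below that value before rounding and is not among them. Of the 15 matches 10 read TGTATATA, 4 TGTAAATA and 1 TGTACATA. Examples of each form are shown, numbered from the 5′ end of the transcript, in windows that start at bases 1187 (site 2), 3019 (site 11), 1288 (site 3), 1872 (site 6) and 1498 (site 5). Capitals mark the motif. A match is a description of the sequence and not a measured binding site.
NORAD site 2: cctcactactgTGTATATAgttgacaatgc
NORAD site 11: caaccctactgTGTATATAgcggacaaact
NORAD site 3: aaatcacatttTGTAAATAcctttttgtta
NORAD site 6: aaataccacttTGTAAATAtctttttgcta
NORAD site 5: tgtgtatatagTGTACATAaaggacagacg

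Because 4-thiouridine enters RNA in place of uridine, the U content of each transcript was also read. U made up 31.7% of NEAT1, 31.6% of OIP5-AS1, 31.4% of CYTOR, 30.3% of NORAD, 29.7% of LINC-PINT, 29.6% of TUG1, 29.0% of MALAT1 and 25.9% of HOTAIRM1. The median of tested lncRNA genes was 25.7%, with quartiles of 22.8% and 28.6%. Thus 7 of the 8 transcripts lie above the upper quartile. The part of U content in the levels given next was not tested.

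The libraries hold 33188536 to 45605027 counts on genes, with the T4A libraries both smaller than the WT libraries. Counts were scaled to CPM, counts relative to library size, with TMM normalization, and 23321 genes passed the filter on low counts. A gene was called when its fold change exceeded 1.5 and its Benjamini-Hochberg adjusted p from the quasi-likelihood test of edgeR was below 0.05. By that rule 1 gene, CHST8, was called, higher in T4A (log2 fold change 1.06, SE 0.09, adjusted p = 0.0311), which is 0.00429% of the tested genes. Of the markers known from HEK293, VIM, KRT8, KRT18, LHX1 and PAX2 had 80 to 3417 counts a library. PAX8 had 8 to 34 counts, no more than some markers of other cell types, and NEFM had 0 to 6. Of the markers of other cell types, ALB, PTPRC, CDH5 and CD3E had 4 to 38 counts a library, HBB 0 to 2 and INS 0. The POLR2A gene, which encodes RPB1 and is carried by the constructs, had 251502 to 384353 counts in every library. It was at 9640 and 8720 CPM in WT and 7492 and 8083 CPM in T4A, with both T4A libraries below both WT libraries. Its log2 fold change was -0.24 (SE 0.25), with edgeR's adjusted p = 0.659. The RNA level of POLR2A does not check the CTD or the degron.

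The levels of the 5 measured genes were compared per kilobase of the listed gene, introns included. MALAT1 was the highest of them in every library, at 76.6 ± 6.07 CPM per kb in WT and 101 ± 22.3 in T4A (SD, n = 2 each). NORAD followed with 24.5 ± 2.58 and 27.5 ± 0.694, then NEAT1 with 20.5 ± 2.17 and 23.2 ± 2.86. TUG1 was at 10.1 ± 0.463 and 8.89 ± 0.137, and HOTAIRM1 at 1.14 ± 0.0439 and 1.001 ± 0.285. This order held in each of the 4 libraries. NORAD and NEAT1, the neighbours in the order, were close in WT replicate 1, at 22.6 and 22.1 CPM per kb, and farther apart in WT replicate 2, at 26.3 and 19.0. Against the median tested gene, at 0.376 CPM per kb, MALAT1 was 192 to 311 times higher over the libraries, NEAT1 50.5 to 67.1 times, NORAD 60.1 to 74.3 times, TUG1 23.4 to 27.6 times and HOTAIRM1 2.13 to 3.20 times. MALAT1 ranked 44 of 23321 genes by this measure and 1 of 6399 tested lncRNA genes, with NORAD 8 and NEAT1 15 among the lncRNA genes. HOTAIRM1 ranked 780 of those lncRNA genes and was thus far less abundant than the others. A gene with long introns stands lower by this measure than by its spliced length, and ranks by spliced length were not computed. By spliced length the WT means of NEAT1, NORAD and TUG1 were unchanged, while that of HOTAIRM1 was 3.53 CPM per kb. The values are levels in the labeled fraction after 20 min and not of total RNA.

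**Figure D1:**
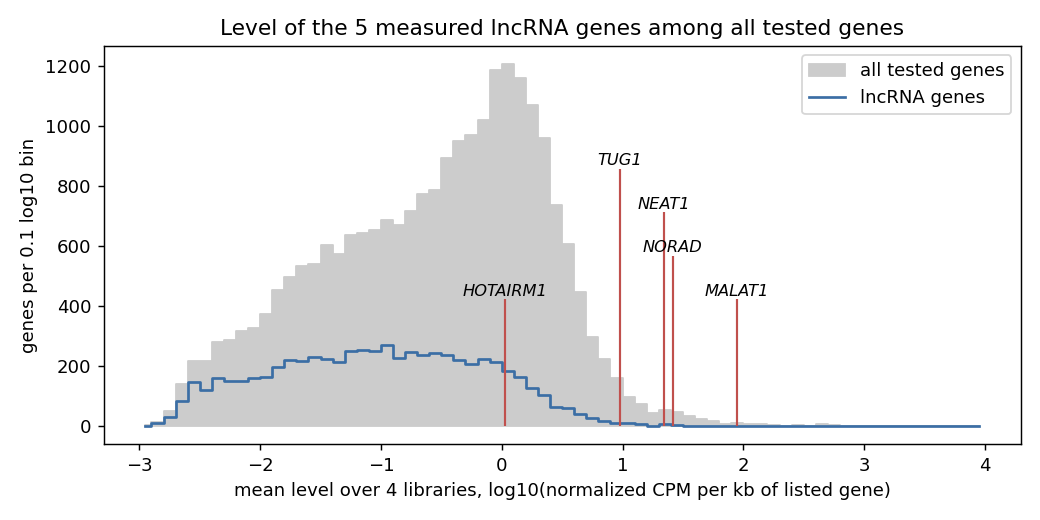
The grey area counts all 23321 tested genes in bins of 0.1 on a log10 axis of mean normalized CPM per kb over the 4 libraries, and the blue line counts the 6399 lncRNA genes among them. Red lines mark the 5 measured genes: MALAT1, NORAD, NEAT1 and TUG1 sit in the right tail and HOTAIRM1 nearer the middle.

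NEAT1 (ENSG00000245532.9, GRCh38 chr11:65422774-65445540, plus strand) showed no difference past the threshold between the constructs. It had 19655 and 19057 counts in WT replicates 1 and 2 and 16206 and 19872 in T4A replicates 1 and 2. After normalization these were 502 and 432 CPM in WT and 483 and 575 CPM in T4A. T4A replicate 2 was the highest and WT replicate 2 the lowest, and the groups overlapped, since T4A replicate 1 lay below WT replicate 1. The means were 467 ± 49.4 CPM in WT and 529 ± 65.0 CPM in T4A (SD, n = 2 each). The log2 fold change of T4A over WT was 0.18 (SE 0.13, 95% interval from -0.12 to 0.48), with edgeR's adjusted p = 0.532. The interval spans from 0.918 to 1.40 times the WT level.

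MALAT1 (ENSG00000251562.8, GRCh38 chr11:65497688-65506516, plus strand) had the highest fold change of the 5 genes, but it did not pass the threshold. Counts were 27955 and 28144 in WT and 25319 and 35710 in T4A. These were 714 and 638 CPM in WT and 754 and 1033 CPM in T4A, so both T4A libraries lay above both WT libraries. T4A replicate 1 exceeded WT replicate 1 by little, and T4A replicate 2 stood well above the other 3. The log2 fold change was 0.40 (SE 0.17, 95% interval from 0.02 to 0.78), a fold of 1.32 (interval 1.02 to 1.72), with edgeR's adjusted p = 0.306 over all tested genes. The size rests on T4A replicate 2. Without T4A replicate 1 the log2 fold change was 0.62 with edgeR's adjusted p = 0.00349, and without T4A replicate 2 it was 0.14 with adjusted p = 0.463. In those fits the single T4A library is assumed to vary as the WT libraries do. The T4A replicates differed by 0.45 on the log2 scale for MALAT1, and 1.8% of the 5373 genes with a mean of at least 50 CPM differed by that much or more.

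The ratio of the neighbours within a library does not depend on normalization. Per length, MALAT1 over NEAT1 was 3.67 and 3.81 in the WT libraries and 4.03 and 4.63 in the T4A libraries. Both T4A ratios were above both WT ratios, with 2 libraries a group and no test. Between the genes the table has few counts. ENSG00000275948, a row of 58 bases that begins at the base after NEAT1, had 0 to 4 counts a library. The pseudogene FAUP4 had 50 to 62, LINC02736 16 to 20 and ENSG00000286756 2 to 7. The nearest protein-coding gene before NEAT1 is FRMD8, 9248 bases away on the same strand, with 1429 and 1470 counts in WT and 781 and 1273 in T4A. FRMD8 was lowest in T4A replicate 1, and its log2 fold change was -0.22 (SE 0.19, adjusted p = 0.604 in edgeR). It did not pass the test, and its estimate has the opposite sign to those of NEAT1 and MALAT1. On the strand opposite MALAT1, ENSG00000270117 had 63 and 66 counts in WT and 37 and 52 in T4A, with a log2 fold change of -0.25 (SE 0.32).

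**Figure D2:**
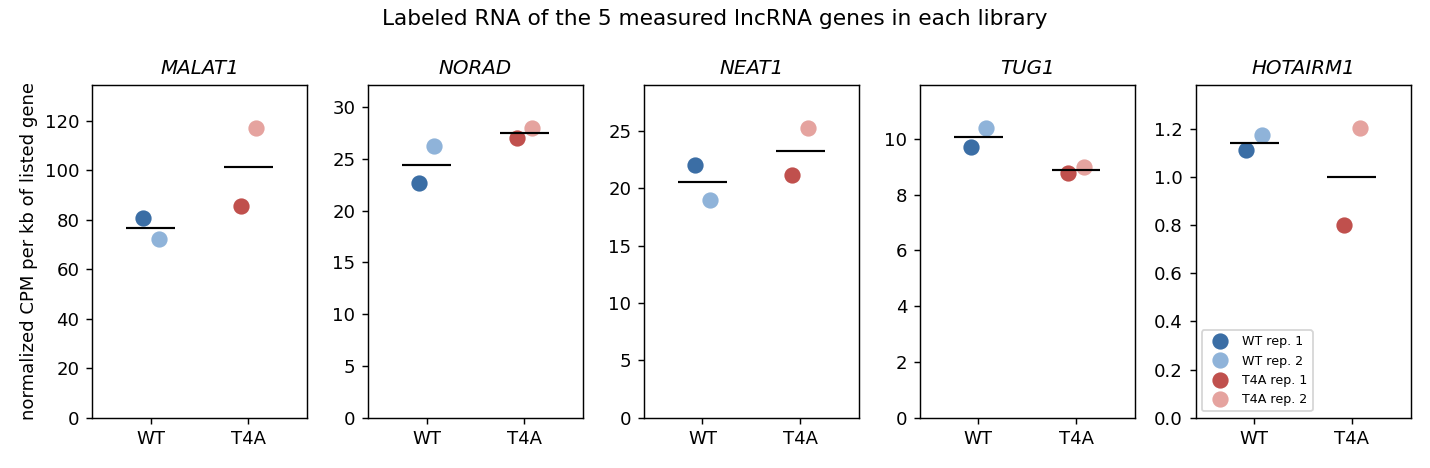
Each panel shows 1 gene, with normalized CPM per kb of the listed gene on a y axis that starts at 0 and has its own scale; points are libraries and lines are means of 2. For MALAT1 and NORAD both T4A libraries lie above both WT libraries, for TUG1 both lie below, and for NEAT1 and HOTAIRM1 the groups overlap.

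NORAD (ENSG00000260032.2, GRCh38 chr20:36045618-36051018, minus strand) had 4783 and 6256 counts in WT and 4889 and 5219 in T4A. As CPM these were 122 and 142 in WT and 146 and 151 in T4A. Both T4A libraries were above both WT libraries, with T4A replicate 1 just past WT replicate 2. The log2 fold change was 0.17 (SE 0.10, 95% interval from -0.06 to 0.39), with edgeR's adjusted p = 0.441. The WT replicates differed by 0.22 on the log2 scale, more than the conditions did. NORAD shares no base with another listed gene. Its nearest protein-coding genes, CNBD2 and EPB41L1, had log2 fold changes of 0.30 (SE 0.17) and -0.29 (SE 0.15) and did not pass the test either.

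TUG1 (ENSG00000253352.10, GRCh38 chr22:30969245-30979395, plus strand) was the only one of the 5 genes with both T4A libraries below both WT libraries. It had 3865 and 4646 counts in WT and 2997 and 3155 in T4A, or 98.7 and 105 CPM in WT and 89.3 and 91.3 CPM in T4A. The T4A replicates were close to each other, 0.03 apart on the log2 scale. The log2 fold change was -0.18 (SE 0.09, 95% interval from -0.38 to 0.02), with edgeR's adjusted p = 0.362. MORC2, on the minus strand with its start 470 bases from TUG1, encodes a chromatin ATPase. It had a log2 fold change of -0.01 (SE 0.11), with its libraries overlapping. The ratio of NORAD to TUG1 per length was 2.33 and 2.53 in WT and 3.07 and 3.11 in T4A, with no test. That separation follows from NORAD lying above and TUG1 below in both T4A libraries. Other ratios per length overlapped between the groups. NEAT1 over NORAD was 0.97 and 0.72 in WT and 0.79 and 0.90 in T4A. TUG1 over HOTAIRM1 was 8.75 and 8.845 in WT and 11 and 7.48 in T4A.

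HOTAIRM1 (ENSG00000233429.9, GRCh38 chr7:27095647-27100265, plus strand) was the least measured of the 5 genes. It had 201 and 239 counts in WT and 124 and 192 in T4A, or 5.14 and 5.42 CPM in WT and 3.69 and 5.55 CPM in T4A. T4A replicate 1 was the lowest and T4A replicate 2 the highest, so the groups overlapped. The log2 fold change was -0.19 (SE 0.24, 95% interval from -0.73 to 0.35), with edgeR's adjusted p = 0.716. Its sign turned without T4A replicate 1, to 0.08. HOXA2, a homeobox transcription factor gene that lies 88 bases beyond HOTAIRM1, had 24 and 25 counts in WT and 28 and 27 in T4A. Its log2 fold change was 0.45 (SE 0.42), and it did not pass the test.

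Over the 5 measured genes no gene was called, by edgeR or by DESeq2. At an unadjusted p below 0.05, 1 was higher in T4A (MALAT1) and none was lower, where 7.45% of all tested genes were higher and 8.02% lower at that level. Both T4A libraries were above both WT libraries for 2 genes (MALAT1 and NORAD) and below them for 1 (TUG1). The shares over all tested genes were 24.8% above and 24.7% below, so counts this small are not set apart from them. The median log2 fold change of the 5 genes was 0.17, beside -0.0008 for all tested genes, -0.04 for 15329 protein-coding genes and 0.16 for 6399 lncRNA genes. The estimates of NEAT1 and NORAD were near the median of lncRNA genes, but both depend on single libraries. NEAT1 fitted at 0.03 with T4A replicate 2 left out and at 0.31 with T4A replicate 1 left out, and at 0.06 and 0.28 when WT replicate 2 or WT replicate 1 was dropped. NORAD was at 0.05 without WT replicate 1 and 0.26 without WT replicate 2. An exact permutation test of 2 against 2 libraries could not reach 0.05.

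**Figure D3:**
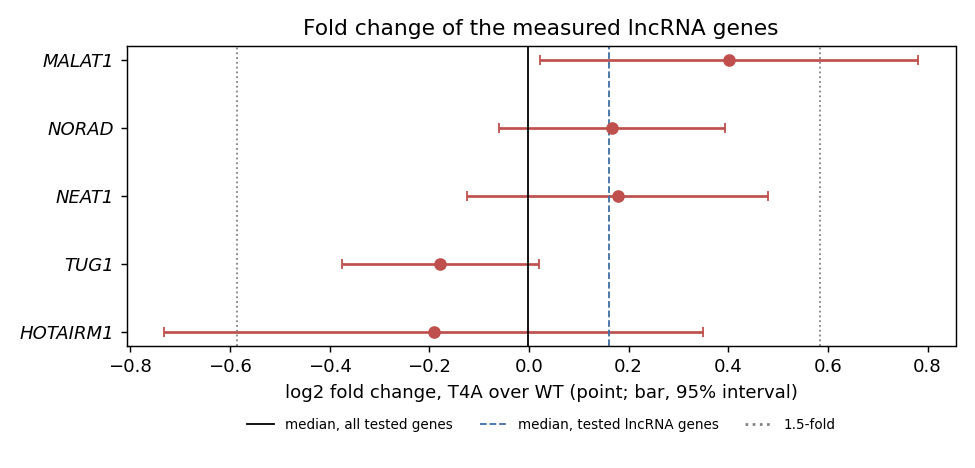
Points are log2 fold changes of T4A over WT from edgeR for the 5 measured genes and bars their 95% intervals, unadjusted; lines mark the medians of all tested genes (-0.0008) and of tested lncRNA genes (0.16), and dotted lines a fold of 1.5. Only the interval of MALAT1, from 0.02 to 0.78, lies above 0.

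OIP5-AS1, CYTOR and LINC-PINT are listed at 0 in all 4 libraries, and nothing follows from this about their RNA. Nearly all of their spans lie inside another gene of the same strand, and the values of the table show that reads over 2 genes of a strand were given to neither. OIP5-AS1 (ENSG00000247556.6, GRCh38 chr15:41283990-41309737, plus strand), which can bind the RNA-binding protein HuR, has 17 bases of its own among 25748. The rest is covered by the readthrough row ENSG00000285920, which itself had 62 and 84 counts in WT and 36 and 38 in T4A (log2 fold change -0.68, SE 0.31, adjusted p = 0.34 in edgeR). CYTOR (ENSG00000222041.11, GRCh38 chr2:87454781-87636740, plus strand) has 695 bases of its own among 181960, and the rest is covered by NCAL1. NCAL1 had 550 and 682 counts in WT and 467 and 461 in T4A, with a log2 fold change of -0.12 (SE 0.14). LINC-PINT (ENSG00000231721.7, GRCh38 chr7:130938963-131110176, minus strand), a target of p53, has 15 bases of its own among 171214.

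The row that covers LINC-PINT is ENSG00000285106, which spans 318898 bases. GENCODE version 44 does not hold that identifier and gives LINC-PINT itself a span of 318913 bases. ENSG00000285106 had 3134 and 3239 counts in WT and 3030 and 2710 in T4A, with a log2 fold change of 0.14 (SE 0.10, adjusted p = 0.536 in edgeR). The libraries overlapped. Reads of LINC-PINT within the shared span cannot be told apart from those of this row, so its value is not given as one of LINC-PINT. CYTOR also has a near-identical copy, MIR4435-2HG, with 3586 and 4455 counts in WT and 2799 and 2750 in T4A. MIR4435-2HG had a log2 fold change of -0.24 (SE 0.09) and an adjusted p = 0.28 in edgeR, and reads that match both copies make it uncertain. Of the 16669 lncRNA genes of the table, 3511 are listed at 0 throughout. Among the 1995 with under 1% of their bases to themselves 1975 are, and among the 12500 that share no base with a gene of their strand 1418 are.

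**Figure D4:**
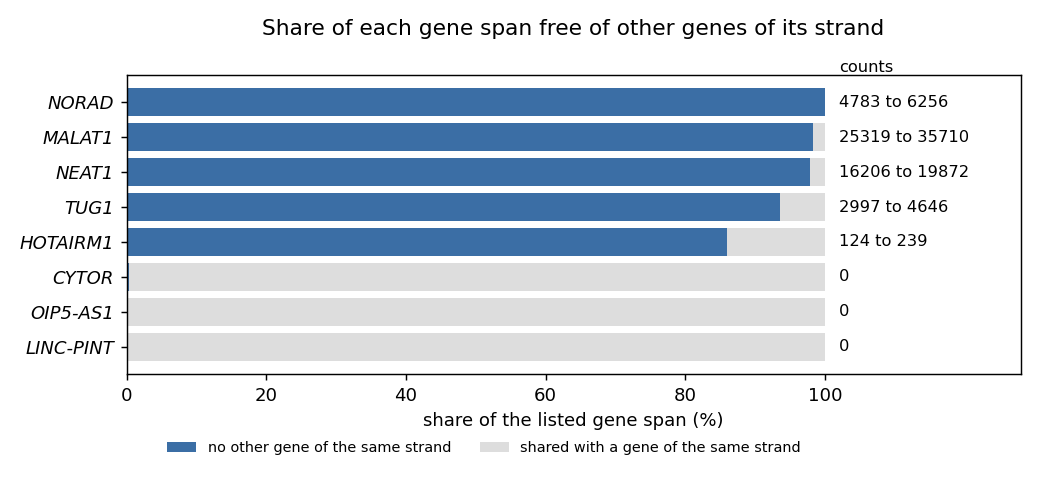
Bars show, for each of the 8 genes, the percent of the listed span that no other gene of the same strand covers (blue) and the rest (grey), with the lowest and highest count over the 4 libraries at the right. NORAD, MALAT1, NEAT1, TUG1 and HOTAIRM1 have most of their span to themselves, and CYTOR, OIP5-AS1 and LINC-PINT next to none, with counts of 0.

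The genes of proteins that work with these RNAs were read in the same libraries, as RNA levels only. Of 13 paraspeckle protein genes 12 were tested and none was called. NONO, SFPQ and PSPC1, the core proteins that bind NEAT1, had log2 fold changes of 0.06 (SE 0.09), 0.16 (SE 0.11) and 0.02 (SE 0.11). At an unadjusted p below 0.05, HNRNPH3 was higher (0.23, SE 0.08, adjusted p = 0.266 in edgeR). SMARCA4 (-0.37, SE 0.11, adjusted p = 0.235), TAF15 (-0.25, SE 0.09, adjusted p = 0.27) and DAZAP1 (-0.60, SE 0.25, adjusted p = 0.311) were lower in the same edgeR fit. DAZAP1 had 4018 and 3500 counts in WT and 1390 and 2713 in T4A, with T4A replicate 1 far the lowest. It was called, at -1.15, in the fit without T4A replicate 2, and its size thus depends on which T4A library is read. RBM14 is listed at 0, which does not show that its RNA was absent, since a 0 can arise where reads over 2 genes of a strand are not counted. Whether RBM14 shares its span with such a gene is not given here. The median of the 12 was 0.04.

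Nuclear speckle proteins include SON and SRRM2, which form the core of the speckle. Of 8 genes all were tested and none was called, with a median of 0.02. SON was at 0.01 (SE 0.09) and SRRM2 at -0.17 (SE 0.14). PNN, a splicing-associated protein gene, was highest at 0.20 (SE 0.08, adjusted p = 0.305 in edgeR) and below 0.05 before adjustment. SRSF1 was lowest at -1.03 (SE 0.99) but had 0 to 15 counts a library, so that its estimate is hardly determined. Whether another gene of its strand shares its span is not given here. Such low counts therefore do not show that its RNA was scarce.

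The enzymes that make the MALAT1 3′ end are RNase P and RNase Z, the latter encoded by ELAC2. Of 11 such genes with a row 10 were tested, and none was called. ELAC2 had a log2 fold change of 0.01 (SE 0.08). POP1, the large protein subunit of RNase P, had 2294 and 2806 counts in WT and 1722 and 1687 in T4A (-0.29, SE 0.10, adjusted p = 0.25 in edgeR). It alone of this list was below 0.05 before adjustment. POP7 at -0.32 (SE 0.19) and RPP38 at -0.24 (SE 0.12) also had both T4A libraries below both WT libraries. None of the 10 tested genes had them above. Over all tested genes the shares were 24.7% below and 24.8% above, so counts this small are not set apart from them. Of the 10 estimates 5 were above 0 and 5 below. The median was -0.05.

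Of 7 genes of proteins that bind NORAD none was called or below 0.05 before adjustment, and the median was 0.08, which turned to -0.07 without T4A replicate 1. PUM2, a Pumilio protein, whose motif is shown above, was lowest at -0.21 (SE 0.10). CDC5L and RBMX were highest at 0.20 (SE 0.09) and 0.19 (SE 0.10). Polycomb repressive complex 2 (PRC2), which trimethylates histone H3 at Lys27, has been studied with several lncRNAs. Of its 11 genes none was called, and the median was 0.02, which turned to -0.08 without T4A replicate 1. It was also just below 0 without WT replicate 1 (-0.0025) and without a filter on low counts (-0.0018). EZH1 was lowest, with 833 and 1058 counts in WT and 600 and 531 in T4A (-0.45, SE 0.14, adjusted p = 0.242 in edgeR), and it alone was below 0.05 before adjustment. EZH2, the other catalytic subunit, was at 0.14 (SE 0.11) with overlapping libraries, EED at 0.24 (SE 0.12) and SUZ12 at -0.05 (SE 0.09).

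**Figure D5:**
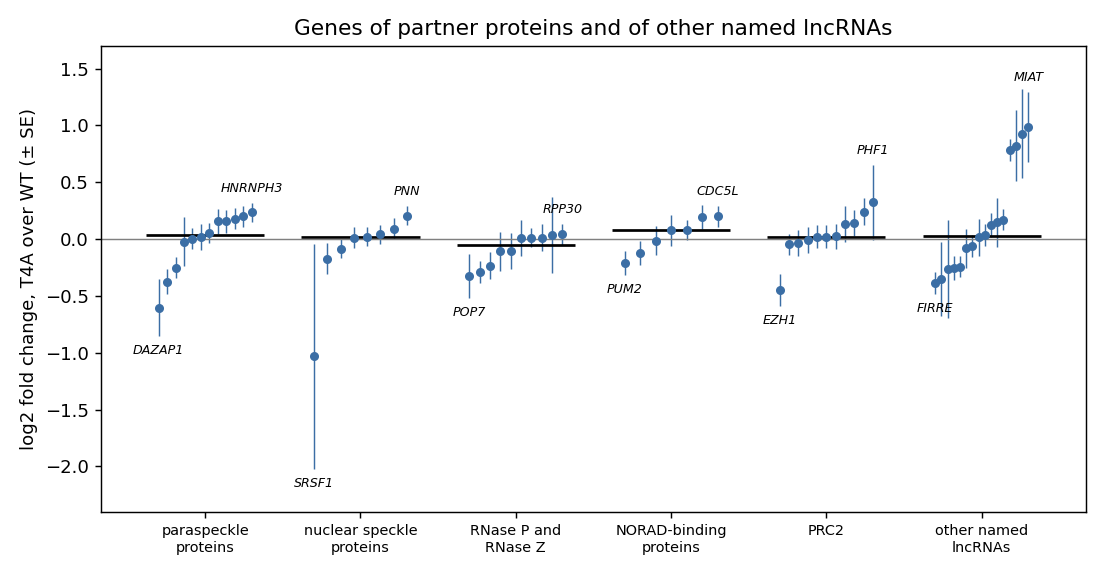
Points are log2 fold changes of T4A over WT from edgeR with SE for the tested genes of each list, in order of size, and black lines are list medians, all between -0.05 and 0.08. The lowest and highest gene of each list are named, and none passed the call rule.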

How the data were processed

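TT-seq was done on 2 WT and 2 T4A libraries. The authors deposited 1 table of raw counts per Ensembl gene from featureCounts, whose version and strand setting are not given in the sources used here. Per the labels the libraries were strand specific, and the submitters' processing notes name cutadapt 4.6, STAR 2.7.11b, Picard, deepTools 3.5.6 and GRCh38. The listed length equals the gene span for 100% of genes, so intronic reads were counted. Positions overlapped those of RefSeq on GRCh38 for 99.9% of the 19065 protein-coding symbols that matched. GENCODE v44lift37 matched 58742 of 60708 identifiers and was used for names, types and transcript sequences only.

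Counts were tested with edgeR 4.0.16 (glmQLFit and glmQLFTest, TMM, filterByExpr, R 4.3.3). Benjamini-Hochberg adjustment ran over all 23321 genes, and the script was tested on simulated data. Library totals were 39249066, 45605027, 33853507 and 33188536 for WT replicates 1 and 2 and T4A replicates 1 and 2. Replicates differed by more than sampling noise (chi-square per degree of freedom of 7.61 in WT and 15.7 in T4A) and were counted as separate samples. DESeq2 1.42.0, other normalizations, filters, the replicate block and leaving out each library were alternatives. The genes, the lists of partner genes and the alternatives were chosen with earlier results of these data known. Named are the 8 genes, overlapping and nearest protein-coding genes, POLR2A, and in each list the genes with the highest and lowest fold changes, those past the threshold and those with a described role. Some of these genes are not reported here. Genes past 0.05 only before adjustment were named after their values were seen.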

Additional observations from a re-analysis of the deposited data

How the results depend on the processing

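None of the 5 measured genes was called under any alternative except 1, MALAT1, without T4A replicate 1. The count of called genes over the whole table was less stable. It was 1 in the edgeR test, 106 with DESeq2, 65 without a filter on low counts and 0 to 2500 when 1 library was left out. The 0 is edgeR's without WT replicate 2, where 1913 genes were below 0.05 before adjustment. Without T4A replicate 2 there were 2500, without T4A replicate 1 195 and without WT replicate 1 3, and each lone library is assumed to vary like the other pair. The replicate block gave 433. Library deviations of the same number correlated at 0.0157 over genes of all levels. This gave no sign that the numbers pair the samples, but it cannot exclude a pairing. The block called none of the 5 genes. The median log2 fold change of the 5 genes ranged over the fits with 1 library left out from 0.0323 (T4A replicate 2) to 0.199 (T4A replicate 1), was 0.0518 without WT replicate 1 and was 0.171 with the block. In those fits HOTAIRM1 ranged between -0.53, with T4A replicate 2 left out, and 0.0794, with T4A replicate 1 left out. Over the longer annotated gene MALAT1 was at 64.8 CPM per kb in WT, still the highest of the 5, and with its spliced length HOTAIRM1 was at 3.53. Dividing by bases free of other genes, an alternative chosen after seeing the data, kept the order of the mean WT levels. The medians of the partner lists are all small. Besides those given with the lists, that of the nuclear speckle genes changed sign (-0.0079 without a filter, -0.0043 without T4A replicate 2). That of RNase P and Z also changed sign (0.0026 by library size). Of the partner genes, DAZAP1 was called with the block (-0.66) and without T4A replicate 2 (-1.15), and POP7 (-0.66) and SRSF1 (listed at 0 in the T4A library kept, so with no fold given) without T4A replicate 2. The cause of these shifts was not tested.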

Other observations

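Of 20 other named lncRNA genes with a row 16 were tested, and none was called in the edgeR test of all 4 libraries. Their log2 fold changes ran from -0.39 to 0.99 with a median of 0.03. The median turned to -0.04 without WT replicate 2 and to -0.03 without T4A replicate 2. LINC00511 had 4824 and 5069 counts in WT and 7238 and 6718 in T4A, both T4A libraries well above both WT libraries. Its log2 fold change was 0.78 (SE 0.10), with edgeR's adjusted p = 0.105, the lowest among 6399 lncRNA genes. It was called by DESeq2 (0.79), by edgeR without a filter on low counts (0.76), with the replicate block (0.78) and without T4A replicate 1 (0.71) or T4A replicate 2 (0.84), with adjusted p from 3.68e-13 to 0.00257 over those edgeR and DESeq2 fits, and not under the other alternatives. MIAT (0.99, SE 0.31), HCP5 (0.93, SE 0.39) and SAMMSON (0.82, SE 0.31) were also higher at an unadjusted p below 0.05, with 24 to 86 counts a library. HCP5 and SAMMSON were called without T4A replicate 2. FIRRE, a lncRNA gene of the X chromosome, had 7929 and 9384 counts in WT and 5598 and 5221 in T4A (-0.39, SE 0.09, adjusted p = 0.201 in edgeR). DLEU1 (-0.26, SE 0.11) and MIR4435-2HG (-0.24, SE 0.09) were lower at that level too. KCNQ1OT1, the long imprinted transcript within KCNQ1, was at 0.04 (SE 0.10). CRNDE was at 0.12 (SE 0.10) and EPB41L4A-AS1 at 0.17 (SE 0.09), both with the T4A libraries above the WT libraries.

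SKAP2, a protein-coding gene 100407 bases from HOTAIRM1 on the lower side of the coordinates, had 3779 and 4393 counts in WT and 2547 and 2575 in T4A. Its log2 fold change was -0.38 (SE 0.08), with edgeR's adjusted p = 0.183. Of the markers of other cell types CDH5 was higher in T4A before adjustment, with 10 and 8 counts in WT and 30 and 16 in T4A (adjusted p = 0.266 in edgeR); it was called without T4A replicate 2. The part of such RNA in the results above was not tested.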
